A study of Canis lupus familiaris with 36 samples.

Results

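MiR-132 and miR-212 (cfa-miR-132 and cfa-miR-212 in the dog) are the 2 miRNAs of a small cluster in which both hairpins come from a single primary transcript. They were chosen by name, as the rows of the deposited table whose mature miRNA is one of the pair, and make up 2 of the 453 mature miRNAs listed and 2 of the 225 that passed the filter on low counts. The libraries were made from archived formalin-fixed, paraffin-embedded (FFPE) tissue of dogs. The 6 cardiac HSA libraries come from hearts of dogs with visceral hemangiosarcoma, a malignant tumor of endothelial cells, and the 6 cardiac control libraries from hearts of dogs that died of non-neoplastic causes. Each library is small RNA of whole tissue from 1 dog. The study did not exclude dogs with prior chemotherapy, and states that its dogs with HSA were older than the controls. A further 24 libraries, from spleen, were not analysed here. The labels contradict themselves, since the title and the treatment field of every cardiac library name opposite conditions. The title was followed, and every direction given here rests on that choice.

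Transcription of the cluster is induced by CREB, the transcription factor that binds cAMP response elements, in response to growth factors, neurotrophins and depolarization. MiR-132 is known from neurons, where it follows synaptic activity, from endothelium exposed to angiogenic growth factors, where it represses the Ras inhibitor p120RasGAP (RASA1), and from macrophages after inflammatory stimulation. In cardiomyocytes the pair is known to promote hypertrophy and to repress the transcription factor FoxO3. In the RefSeq annotation of another dog assembly than that of the files, UU_Cfam_GSD_1.0, the genes of the 2 hairpins follow each other with no gene between them. DPH1, an enzyme of diphthamide synthesis, lies on one side and HIC1, a transcriptional repressor, on the other. The files list 1 entry for each of the 2 miRNAs and do not name the arm of the hairpin that it stands for.

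Both miRNAs were higher in cardiac HSA, by nearly the same factor. Cfa-miR-132 rose 5.78-fold and cfa-miR-212 5.81-fold, and every HSA library was above every control library for each of them. Such a difference was not rare, since 58 of the 225 miRNAs tested, 25.8%, were called (an adjusted p below 0.01 with a log2 fold change of 1 or more in size, the thresholds of the study). The calls higher in HSA were 42, or 18.7%, and 34 miRNAs, or 15.1%, had groups that did not overlap in this direction. With counts scaled by library size only, 73 were called, 68 of them higher. The ratio between them did not differ detectably between the groups. The cluster was a low-abundance one throughout, with miR-132 at rank 121 and miR-212 at rank 199 of 225 by mean level. Levels are given as CPM, counts scaled to a common library total, after edgeR's TMM normalization, which corrects that total for a few miRNAs taking a large share of the reads. They are not divided by length because a read covers a whole mature miRNA.

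MiR-132, the more abundant partner, had at most 260 reads in a control library, with a median of 218.5, and at least 307 in an HSA library, with a median of 550.5 and a highest count of 2682. Its level in control ran from 21.4 CPM in replicate 6, with a median of 27.0, to 30.9 CPM in replicate 4. In HSA it ran from 59.9 CPM in replicate 6, with a median of 148, to 297 CPM in replicate 2. The control libraries were thus close together and the HSA libraries far apart, with a coefficient of variation of 12.0% in control and 59.5% in HSA. The group levels were 26.6 ± 3.18 CPM (SD, n = 6) in control and 154 ± 91.6 CPM (SD, n = 6) in HSA. The lowest HSA library was 1.94 times the highest control library. On the log2 scale the rise was 2.53 ± 0.39 (standard error), with an adjusted p of 0.000935 (edgeR's quasi-likelihood test with Benjamini-Hochberg adjustment over all entries).

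MiR-212, which shares the transcript, was measured from far fewer reads, 8 to 32 in control and at least 39 in HSA, where the median was 45.5. Its level in control ran from 1.04 CPM in replicate 4, with a median of 2.12, to 4.42 CPM in replicate 1. In HSA it ran from 4.81 CPM in replicate 6, with a median of 13.2, to 22.8 CPM in replicate 2. HSA replicate 6 lay just above the highest control library, at 1.09 times its level, while the other 5 HSA libraries started at 8.62 CPM. The group levels were 2.35 ± 1.29 CPM (SD, n = 6) in control and 13.7 ± 6.76 CPM (SD, n = 6) in HSA. The rise on the log2 scale was 2.54 ± 0.48 (standard error), with an adjusted p of 0.00193 in the same edgeR fit. The relative spread in control was larger than that of miR-132, with a coefficient of variation of 54.7%, and that in HSA was 49.2%.

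**Figure D1:**
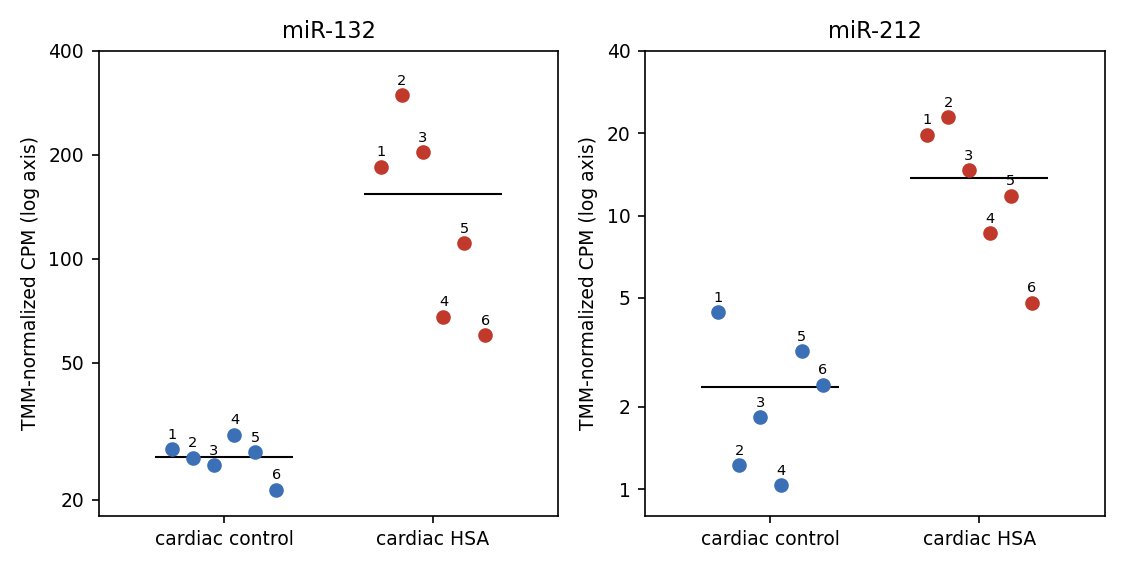
Levels of miR-132 (left) and miR-212 (right) in TMM-normalized CPM on log axes, 1 point per library, with the replicate number above each point and the group mean as a horizontal line. All 6 HSA libraries lie above all 6 control libraries in both panels, with replicates 1, 2 and 3 highest and replicate 6 lowest in HSA.

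Ranked by log2 fold change among all miRNAs tested, miR-212 was at rank 24 and miR-132 at rank 25 of 225, and by unadjusted p miR-132 was at rank 6 and miR-212 at rank 19. The median log2 fold change of all miRNAs tested was 0.34, and the members stood 2.19 (miR-132) and 2.20 (miR-212) above it. With counts scaled by library size only, that median was 0.97, and the members, at 3.28 and 3.26, stood 2.31 and 2.29 above it. The count of 58 calls changed when 1 library was left out, which also leaves fewer libraries in each fit. It was 24 without control replicate 5, 25 without control replicate 1, 26 without control replicate 4 and 29 without control replicate 2. Without control replicate 6 or HSA replicate 4 it was 38. It rose to 65 without HSA replicate 6, and the remaining fits gave from 39 to 56 calls. Both members were called in each of the 12 fits that left out 1 library.

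The ratio of the 2 partners compares them within a library, where the normalization cancels. Reads of different sequences are not calibrated against each other, so the ratio is compared between libraries and not read as a ratio of molecules. Over all 12 libraries there were 11.7 reads of miR-132 for each read of miR-212. The summed counts gave 11.9 in control (1258 and 106 reads) and 11.7 in HSA (5155 and 440 reads). The mean log2 ratio was 3.63 ± 0.84 (SD, n = 6) in control and 3.42 ± 0.33 (SD, n = 6) in HSA. The difference, HSA minus control, was -0.21 (95% interval from -1.10 to 0.60 by inversion of the test, exact permutation test over all divisions of the libraries, two-sided p = 0.567). The smallest p that this test can give is 0.00216.

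Single libraries gave ratios from 6.34 in control replicate 1 to 29.9 in control replicate 4, with a control median of 11.3. In HSA they ran from 7.87 in replicate 4, with a median of 10.9, to 13.9 in replicate 3. All 6 HSA ratios lay inside the range of the control ratios, and the control ratios had the wider range. MiR-212 made up 3.24% of the reads of the pair in control replicate 4 (95% Wilson interval from 1.65 to 6.26%) and 13.6% in control replicate 1 (9.81 to 18.6%). In HSA the share ran from 6.71% in replicate 3 (5.09 to 8.81%) to 11.3% in replicate 4 (8.36 to 15.0%). Amplified reads are not independent molecules, so the intervals hold for counting error alone. The sources name different library kits for the heart samples, with and without molecular identifiers, and the counts are taken here as reads.

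Of the 66 pairs of libraries, 11 had intervals that did not overlap. These were 3 of the 15 pairs within control, 1 of the 15 within HSA and 7 of the 36 between the groups. Counting error alone would give the log2 ratio an SD of 0.39 in control, where miR-212 had few reads, and 0.21 in HSA, against the 0.84 and 0.33 observed. Over the 12 libraries the level of miR-132 spanned 13.9-fold, that of miR-212 22.0-fold and the ratio 4.71-fold.

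**Figure D2:**
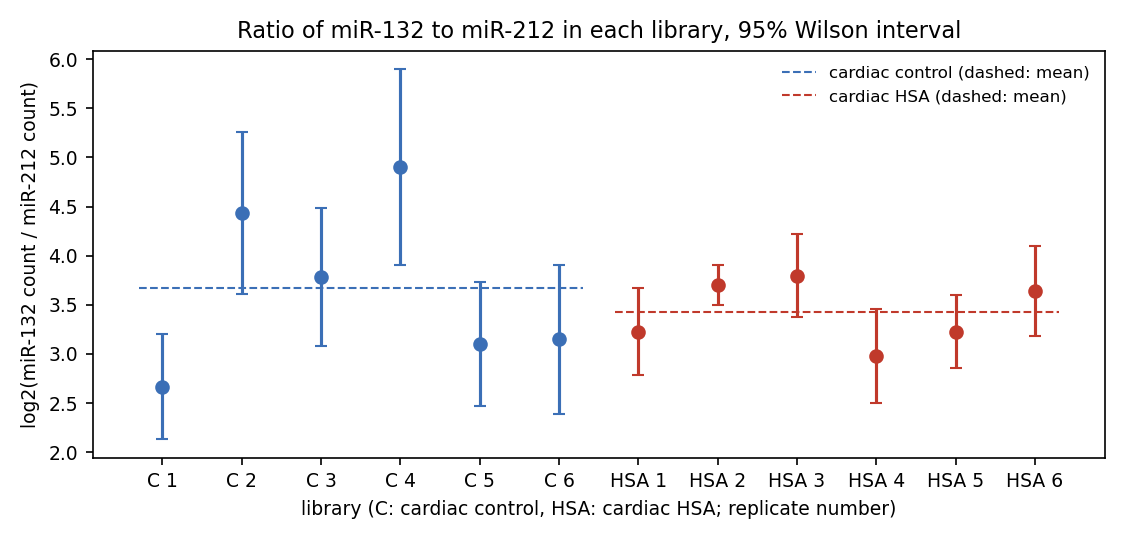
Log2 of the miR-132 count over the miR-212 count in each of the 12 libraries, without a pseudocount, with 95% Wilson intervals from the share of miR-212 in the reads of the pair and the group mean as a dashed line. Control replicates 1 and 4 mark the lowest and the highest ratio, and the 6 HSA libraries lie between them.

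Within the groups, the partners rose and fell together among the HSA libraries. The log2 levels there had a Pearson r of 0.94 (exact permutation test, two-sided, unadjusted p = 0.00694, adjusted p = 0.0278 over 4 values) and a Spearman rho of 0.94 (unadjusted p = 0.0167, adjusted p = 0.0333 in the same exact test, n = 6). Without replicates 4 and 6, which lie farthest from the median of miR-132, r was 0.87 over the 4 libraries left. Without replicate 3, r was 0.95 and the adjusted p from the exact permutation test 0.05, with 5 libraries left. Replicates 1, 2 and 3 were the 3 highest for both miRNAs and replicate 6 the lowest for both. Among the 6 control libraries no such relation was seen, with r = -0.20 (exact permutation test, two-sided, unadjusted p = 0.749, adjusted p = 0.919) and rho = -0.09 (unadjusted p = 0.919, adjusted p = 0.919). Without control replicates 4 and 6, r there was 0.75 over the 4 libraries left, but only 0.31 to 0.40 under the 3 other scalings. The control value thus depends on these libraries and on the scaling. The 2 miRNAs of a library share its scaling factor, and the difference between the 2 correlations was not tested.

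**Figure D3:**
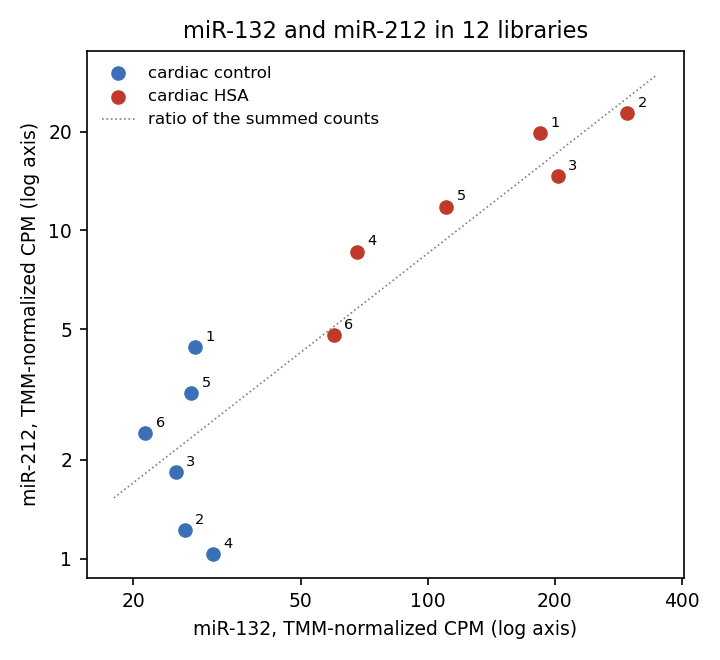
MiR-212 against miR-132 in TMM-normalized CPM on log axes, 1 numbered point per library, with a dotted line at the ratio of the summed counts, 11.7. The HSA libraries follow the line over 4.96-fold in miR-132, and the control libraries stand in a narrow range of miR-132 from 21.4 to 30.9 CPM with miR-212 from 1.04 to 4.42 CPM.

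Among the other 224 miRNAs tested, miR-212 was the second most like miR-132 over the 12 libraries, with r = 0.92. MiR-21, a miRNA of injured and fibrotic tissue, was first with r = 0.94. MiR-132 was the most like miR-212. Next to the partner stood miR-224 (r = 0.92), miR-106b (0.92) and miR-18a (0.90) for miR-132, and miR-106b (0.90), miR-21 (0.89), miR-148b (0.88) and miR-1838 (0.88) for miR-212. These values hold the difference between the groups as well. After the mean of each group was subtracted, r between the partners was 0.67, which placed miR-212 at rank 6 for miR-132 and miR-132 at rank 5 for miR-212. The 5 ahead of miR-212 were then miR-381 (0.74), miR-224 (0.73), miR-214 (0.71), miR-494 (0.69) and miR-21 (0.67). The 4 ahead of miR-132 were miR-33a (0.70), miR-148b (0.70), miR-23a (0.69) and miR-497 (0.67). All these are descriptions over 12 libraries that share their scaling, with no test.

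Other miRNAs that are transcribed in clusters give a scale for the ratio. Of 17 listed pairs besides miR-132 and miR-212, 16 passed the count filter with both partners. Their difference in log2 ratio between HSA and control ranged in size from 0.15 for miR-221 and miR-222 to 1.20 for miR-30b and miR-30d, with a median of 0.75. The 0.21 of miR-132 and miR-212 was the second smallest of the 17 pairs compared. Partners of other clusters parted more, as in miR-23b and miR-27b, whose ratio was higher in HSA by 1.17, and miR-99b and let-7e, whose ratio was lower by a log2 difference of -1.0. MiR-30b and miR-30d were the single pair whose groups did not overlap. The SD within groups of the miR-132 to miR-212 ratio, 0.64, was the third largest of the 17, where the other pairs ran from 0.21 to 1.20 with a median of 0.48. Within HSA alone its SD was the third smallest. Most other pairs were counted from far more reads, and differences between pairs were not tested.

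**Figure D4:**
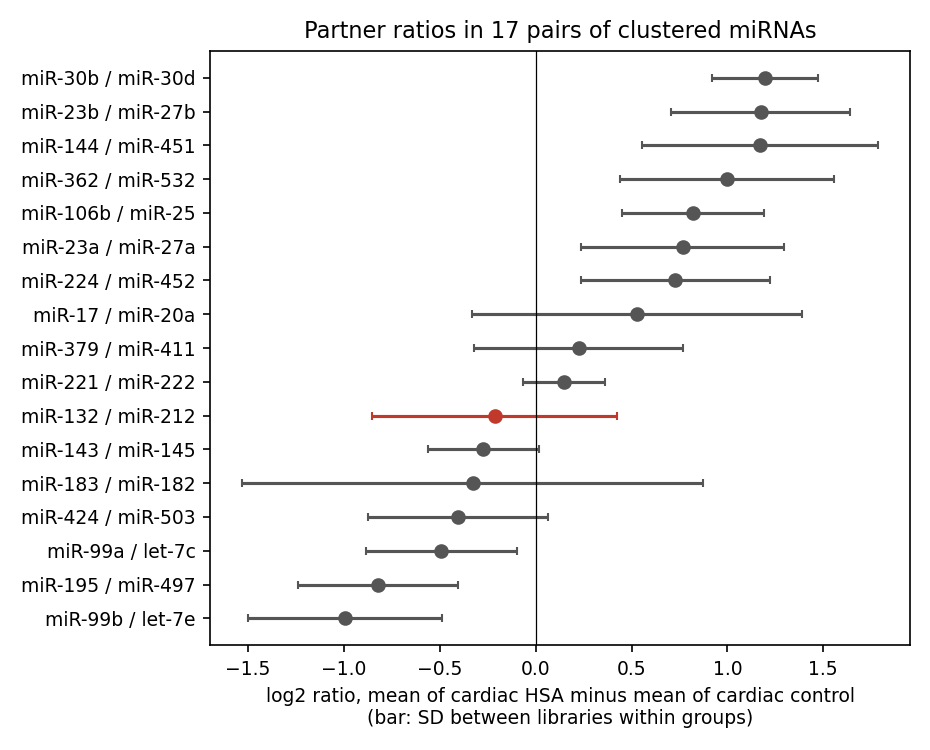
Difference in the mean log2 ratio of 2 clustered miRNAs, cardiac HSA minus cardiac control, for 17 pairs, with bars for the SD between libraries within groups. The pair miR-132 and miR-212 (red) stands at -0.21, near 0, and the pairs range from -1.0 for miR-99b and let-7e to 1.20 for miR-30b and miR-30d.

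Lists of miRNAs from the settings in which the cluster is known are given by their counts and medians. Over all 225 miRNAs tested, 18.7% were called higher and 25.8% in either direction. Of 7 miRNAs induced by inflammatory stimuli, 6 were tested and 5 called higher. Their median log2 fold change was 2.69, against 0.34 over all miRNAs tested. No member was called lower, with edgeR, DESeq2 or limma, or had an unadjusted p under 0.05 in that direction. MiR-21 went from 5464 ± 819 CPM (SD, n = 6) to 51260 ± 30674 CPM (log2 fold change 3.23, standard error 0.39, edgeR adjusted p = 0.000485). MiR-146a and miR-146b, which restrain NF-κB signaling, rose as well, miR-146a by 2.63 on the log2 scale (adjusted p = 0.00112) and miR-146b by 2.76 (adjusted p = 0.000965). MiR-9 was not called, at 0.61 with an adjusted p of 0.192. With any 1 library left out, 4 or 5 members of the list were called.

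Of 19 miRNAs tied to angiogenesis and endothelium, 18 were tested. By edgeR, 6 of them were called higher, against 18.7% of all miRNAs tested, and 0 lower, with a median log2 fold change of 1.01. At an unadjusted p under 0.05, 11 were higher and 2 lower, and DESeq2 and limma also called 0 lower. The count of calls was 2 without HSA replicate 1 or 4, 3 without control replicate 1, 4 or 5, and 4 without HSA replicate 3. The most abundant members included miR-10a, called higher at 3.09 (adjusted p = 0.00461). The others, miR-27b, miR-378 and miR-92a, were not called, with log2 fold changes of -0.76, -1.21 and -0.30. MiR-126, the miRNA most typical of endothelial cells, was not called either, at -0.45 (standard error 0.37, adjusted p = 0.328, or 0.06 with library size scaling), and its deposited CPM spanned 1783 to 2920 in the control libraries and 1039 to 4084 in the HSA libraries.

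Of 16 miRNAs tied to cardiac hypertrophy and fibrosis, all were tested, 1 was called higher, miR-21, and 1 lower, miR-30c, at -1.19 (adjusted p = 0.00456). The median log2 fold change of this list was -0.18, and it was 0.40 with 4 called higher and 0 lower when counts were scaled by library size only. No member was called lower without control replicate 1, 2, 4 or 5, without HSA replicate 1 or 4, with upper quartile factors or with limma, and 2 were without HSA replicate 6. MiR-1 and miR-133a, the main miRNAs of heart muscle, were not called, at -1.27 and -1.24, each with an adjusted p of 0.218. The members of the MEF2-driven cluster that neuronal activity induces, miR-134, miR-329a, miR-329b, miR-379, miR-381 and miR-485, gave 4 miRNAs tested and none called, with a median of 0.82. Of these, 0 had an unadjusted p under 0.05 in edgeR, and DESeq2 and limma called 0.

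Marker miRNAs of cell types are given beside the pair, since in bulk tissue fewer cells of a type and less RNA per cell cannot be told apart. The 9 muscle miRNAs, with miR-133a and miR-133c counted from the same reads, summed to between 142880 and 189619 deposited CPM in control and between 1034 and 190577 in HSA. HSA replicates 1 and 6 had as much as control, with 180974 and 190577. In these libraries miR-132 stood at 185 and 59.9 CPM and miR-212 at 19.7 and 4.81 CPM after normalization, above every control library, as in the other 4. None of the 9 was called, with 0 higher and 1 lower at an unadjusted p under 0.05 in edgeR, and 0 called by DESeq2 or limma. MiR-208a was at 0 in 4 libraries, and no other marker of heart muscle was at 0 in more than 1. HSA replicate 3 stood apart, with 1034 CPM of muscle miRNAs and 237266 CPM of the 3 liver miRNAs (115 to 182 in control). Without it, the log2 fold change was 2.44 for miR-132 (adjusted p = 0.00202) and 2.52 for miR-212 (adjusted p = 0.00380) in edgeR, and the difference in log2 ratio was -0.29 (exact permutation test, two-sided p = 0.478).

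The 4 leukocyte miRNAs summed to between 203 and 308 deposited CPM in control and between 550 and 6548 in HSA, and all 4, miR-142, miR-150, miR-155 and miR-223, were called higher. With any control library or HSA replicate 2, 3 or 4 left out, 2 were called. HSA replicate 2 had the highest leukocyte sum in deposited CPM as well as the highest miR-132 and miR-212. Replicate 4, with the second highest sum of 3790, was second lowest for both miRNAs. In deposited CPM, miR-132 and miR-212 stood at 547 and 42.0 in replicate 2 and at 74.7 and 9.49 in replicate 4. The TMM factors of these libraries were 1.97 and 1.16, so their leukocyte sums lie closer together after TMM. Of the 10 neuronal miRNAs, whose cell type expresses the cluster strongly, 5 were tested and 2, miR-129 and miR-219-5p, were called higher. None was called without control replicate 1, 3, 4, 5 or 6, and 1 without control replicate 2 or any of HSA replicates 1 to 5. Their sum was 856 to 1284 CPM in control against 913 to 2549 in HSA, and came mainly from miR-9 and miR-128. Of these, miR-128 was lower in HSA, at -0.44 (standard error 0.13, edgeR adjusted p = 0.0137), but not called. MiR-124, the miRNA most typical of neurons, was not called, at 4.98 ± 9.01 CPM (SD, n = 6) in control and 15.6 ± 15.4 CPM (SD, n = 6) in HSA, and miR-137, miR-138a, miR-138b, miR-153 and miR-219-3p did not pass the filter.

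Epithelial miRNAs summed to between 7.21 and 17.3 CPM in control and between 76.8 and 14714 in HSA, with 3 of 4 tested called higher, or 6 of 8 with DESeq2. The edgeR calls fell to 2 when 1 of control replicates 1, 2, 4, 5 and 6 was left out. The highest epithelial sums, in HSA replicates 2, 3 and 5, were mostly miR-375, with 40497, 17006 and 55942 reads. In HSA replicate 2, miR-203 had 2989 reads and miR-200c 72, and miR-200a, miR-200b and miR-429 had 0. These sums thus mainly follow 1 miRNA of the list. All 3 liver miRNAs were called higher, but none when any 1 control library was left out and 1 with limma. Of the 3 erythroid miRNAs 1, miR-144, was called higher. This call was lost when 1 of control replicates 1, 2, 4 and 5 or HSA replicates 1 to 4 was left out. MiR-451 was not called, at 0.81 (edgeR adjusted p = 0.198). MiR-486 was lower, at -1.33, but not called (edgeR adjusted p = 0.0205). DESeq2 called 1 of the 3 higher and 1 lower. The erythroid miRNAs summed to between 15251 and 22558 CPM in control and between 6099 and 52273 in HSA. By mean TMM-normalized CPM, miR-486 was the larger part in control, at 19182 against 8312 for miR-451. In HSA the mean was 7612 for miR-486 and 14587 for miR-451, so the sum is not made up alike in both groups. Of the 4 miRNAs of fibroblasts and smooth muscle, none was called, with edgeR, DESeq2 or limma, and none had an unadjusted p under 0.05 in edgeR. They summed to between 45747 and 66204 CPM in control and between 55134 and 137605 in HSA. No listed marker was at 0 in all 12 libraries. The part of any of these cell types in the levels of miR-132 and miR-212 was not tested.

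**Figure D5:**
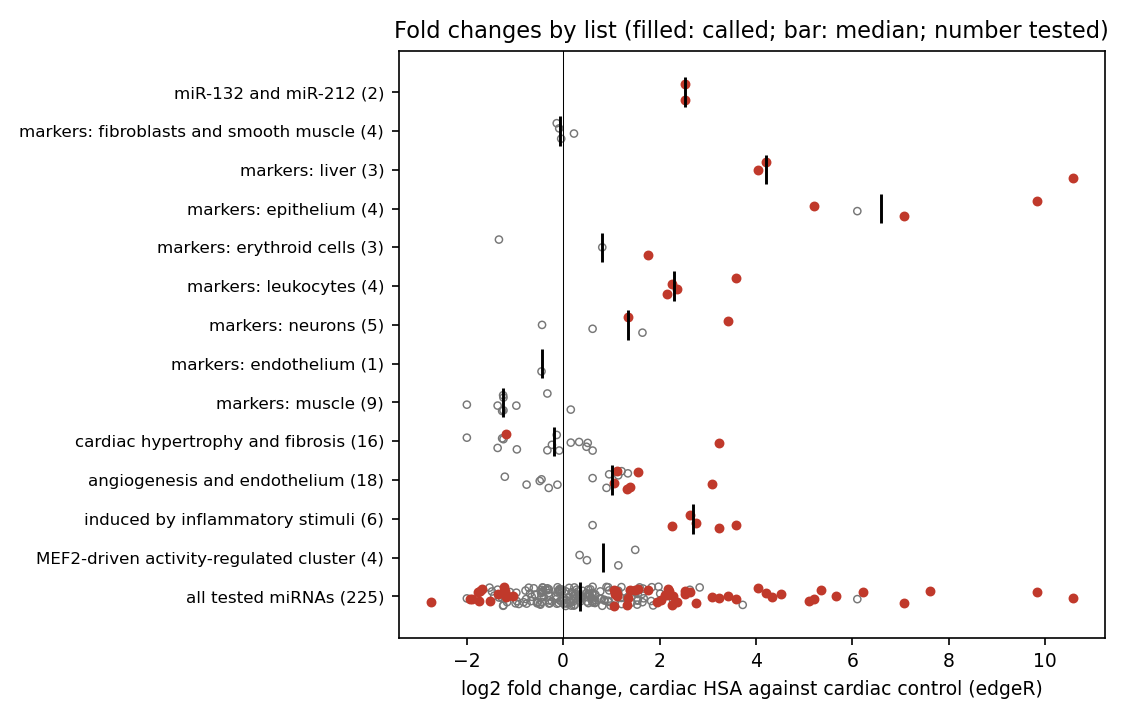
Log2 fold changes of cardiac HSA against cardiac control from edgeR, 1 point per miRNA tested, for all 225 miRNAs, each list and the 2 members, with filled points for called miRNAs and a bar at each median. MiR-132 and miR-212 both stand at about 2.5, above the median of all miRNAs, 0.34. They lie between the median of the leukocyte miRNAs, 2.31, and that of the miRNAs induced by inflammatory stimuli, 2.69, lists that share miR-155 and miR-223.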

How the data were processed

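The authors trimmed adapters (Cutadapt), aligned reads with Bowtie to the dog genome CanFam3.1, annotated them with miRBase and counted them with HTSeq. For the heart libraries the methods name the NEXTflex kit, whereas the labels name the QIAseq kit, which adds molecular identifiers, for every library. They deposited raw counts for 517 entries, each a mature miRNA with its precursor, and the same counts as CPM. The deposited CPM are scaled by column totals alone, since recomputed values differed by at most 0.00499. Entries of a mature miRNA with identical counts were merged, leaving 474, with totals of 6999830 to 11668822 per control library and 2018959 to 8999025 per HSA library. TMM factors were 0.769 to 0.889 in control and 0.948 to 1.97 in HSA.

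Libraries were grouped by title. All entries were fitted together in edgeR 4.0.16 under R 4.3.3 (filterByExpr, TMM, quasi-likelihood F test), with standard errors derived from F. A mature miRNA with several entries is given by its most abundant one. Correlations used log2 CPM with a prior count of 2, and ratios a pseudocount of 0.5 on each count. Exact permutation tests were enumerated in Python 3.11.15, and 95% Wilson intervals used scipy 1.17.1. No 2 libraries had identical counts. Alternatives were other normalizations, filters and handling of entries, DESeq2 1.42.0, limma 3.58.1, a block for the replicate number, and each library left out in turn. Values without HSA replicate 3 for the correlation and the lists were added after seeing the data.

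Members, lists and pairs were chosen with earlier results of these data known. Other miRNAs named are the 5 most like each member and up to 4 of each list with the highest mean level, with others that a count of 5 or fewer refers to or that were singled out after their values were seen. MiR-138, miR-219 and miR-329 were read as all their forms in the files, and miR-199a as miR-199. No entry matched miR-296.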

Additional observations from a re-analysis of the deposited data

How the results depend on the processing

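Over the 11 alternatives that kept all libraries, the log2 fold change of miR-132 ran from 2.31 to 3.28 and that of miR-212 from 2.44 to 3.26, and both calls held in 10 of them. The exception was the replicate block, a fit with the replicate number as a term, in which the log2 fold changes were 2.31 (adjusted p = 0.0106) and 2.53 (adjusted p = 0.0173), both above the threshold of 0.01 in edgeR. That block fit called 6 miRNAs, 3 of them higher. The replicate numbers do not pair the dogs. Deviations of same-numbered libraries had correlations from -0.28 to 0.04, and 0 of 12 libraries correlated best with the library of their own number. With 1 library left out, miR-132 ran from 2.11 to 2.70 and miR-212 from 2.16 to 2.81, and both stayed called in all 12 fits. The number of called miRNAs then ran from 24 to 65 and the number called higher from 19 to 45, with fewer libraries in each fit. Scaling by library size only gave 68 called higher, and DESeq2 called 74 in all. The difference in the log2 ratio of the partners ran from -0.24 to -0.01 over its 4 alternatives, the sign-flip test with the replicate block included, and from -0.41 to 0.03 with 1 library left out, with no exact p under 0.299. The correlation within HSA kept its side of the threshold of 0.05 under the 3 other scalings, with r from 0.93 to 0.97. Without HSA replicate 3, chosen after the values were seen, r was 0.95 and rho 1.00, each with an adjusted p of 0.05 from 5 libraries. Depth limits miR-212 in control, where a library has as few as 8 reads.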
